A study of Mus musculus with 8 samples.

Results

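Genes of inhibitors of cyclin-dependent kinases were followed in mouse lung, taken whole from embryos on embryonic day 14.5. They were all genes named Cdkn2a, Cdkn2b, Cdkn2c, Cdkn2d, Cdkn1b or Cdkn1c that had a probe set of their own in the platform annotation, which gave 6 members among 22180 genes tested, 4 of the INK4 family and 2 of the CIP/KIP family. Each member had 1 probe set, so no choice between probe sets was needed. The array compared 4 mutant embryos, Shh-cre:Ezh2-flox/flox, with 4 control embryos that carried Shh-cre alone, all on a mixed C57BL/6 x 129S6 background. Shh-cre, a Cre knock-in at the Shh locus that is active in the lung epithelium, was thus present in every embryo, and only the mutants were also homozygous for the floxed allele of Ezh2, which encodes the enzyme of the Polycomb complex PRC2 that methylates histone H3. Mesenchyme, vessels and other cells of the lung lie outside the reach of that driver, and the arrays average over all of them. The 8 embryos came from 4 litters of 2 littermates, and each litter held embryos of a single genotype. Effects of litter and of genotype therefore cannot be fully told apart.

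INK4 proteins bind the kinases CDK4 and CDK6 and keep them from D-type cyclins, which leaves the retinoblastoma protein active and holds cells in G1. CIP/KIP proteins bind complexes of cyclins with CDK2 and other kinases, and p27 and p57 can stop cells on their way to differentiation. Cdkn2a encodes both p16Ink4a and, in another reading frame, p19Arf, which stabilises p53. It lies beside Cdkn2b, the gene of p15Ink4b, in a locus known as a textbook target of Polycomb repression, so that the comparison bears on a well-known relation between PRC2 and the cell cycle.

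The start regions of the genes on which the comparison turns are shown for their content of CG dinucleotides, since Polycomb complexes are known to occupy CG-rich starts. The RefSeq table (build GRCm38.p6) held windows of 300 bases, 250 before to 50 after the start, for 5 of the 6 members. Capitals mark CG dinucleotides, and each window reads 5′ to 3′ on the strand of its gene, here the minus strand. The upstream start of Cdkn2a, from which the p19Arf transcript is known to begin, lies at chr4:89294570-89294869, and the downstream start, used by p16Ink4a, at chr4:89282143-89282442. The start of Cdkn2b lies at chr4:89310983-89311282, and that of Cdkn2d, the INK4 gene with the smallest difference between the groups, at chr9:21291160-21291459.
Cdkn2a upstream start: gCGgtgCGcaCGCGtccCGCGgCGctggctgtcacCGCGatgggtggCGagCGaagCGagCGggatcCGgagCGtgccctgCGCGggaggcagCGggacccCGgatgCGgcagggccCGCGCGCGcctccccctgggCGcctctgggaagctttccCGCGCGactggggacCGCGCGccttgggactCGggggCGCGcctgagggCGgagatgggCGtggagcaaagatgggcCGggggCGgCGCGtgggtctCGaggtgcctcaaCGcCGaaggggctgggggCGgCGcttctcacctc
Cdkn2a downstream start: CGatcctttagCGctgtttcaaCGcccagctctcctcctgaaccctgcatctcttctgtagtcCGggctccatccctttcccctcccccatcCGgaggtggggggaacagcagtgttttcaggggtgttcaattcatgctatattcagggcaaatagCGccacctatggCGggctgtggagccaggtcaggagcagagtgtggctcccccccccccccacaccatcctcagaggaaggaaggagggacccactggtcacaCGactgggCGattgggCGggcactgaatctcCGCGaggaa
Cdkn2b: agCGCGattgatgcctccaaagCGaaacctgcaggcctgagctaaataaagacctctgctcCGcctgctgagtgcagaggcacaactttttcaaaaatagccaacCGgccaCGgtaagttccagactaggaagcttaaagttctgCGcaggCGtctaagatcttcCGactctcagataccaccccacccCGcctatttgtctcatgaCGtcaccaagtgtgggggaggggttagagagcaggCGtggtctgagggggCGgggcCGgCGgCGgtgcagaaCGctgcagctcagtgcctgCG
Cdkn2d: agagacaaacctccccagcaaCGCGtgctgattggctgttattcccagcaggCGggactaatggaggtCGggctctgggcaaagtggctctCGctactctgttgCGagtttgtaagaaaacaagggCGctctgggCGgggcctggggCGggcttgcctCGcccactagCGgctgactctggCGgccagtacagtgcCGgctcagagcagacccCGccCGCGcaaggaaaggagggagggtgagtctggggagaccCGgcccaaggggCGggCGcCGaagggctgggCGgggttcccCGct

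The upstream Cdkn2a window held 45 CG dinucleotides, more than 98.1% of the 32851 windows in the table, whose median was 7. The downstream Cdkn2a window held 12, more than 60.4% of windows. Both starts of this single gene thus differ widely in CG content, and they lie 12427 bases apart. The Cdkn2b window held 18 and that of Cdkn2d 22. Among the windows not printed, Cdkn1b held 30 and the upstream and downstream starts of Cdkn2c held 33 and 8. The start of Cdkn2b lies 16413 bases upstream of the first Cdkn2a start. The E2F-type motif TTTNNCGC, searched on both strands, occurred once in each of the 2 Cdkn2a windows and in none of the other 5 member windows, against 5.17% of all windows. The GC box GGGCGG, searched on both strands and containing a CG counted above, was present in 6 of the 7 member windows, against 35.7% of all windows, and was missing from the downstream Cdkn2c window. These matches are descriptions of letters and not of binding. The array summarised Cdkn2a in 1 probe set, and which of its transcripts the probes cover is not given in the sources used here, so p16Ink4a and p19Arf were not told apart.

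All values below are log2 expression per probe set, so a difference of 1 is a 2-fold change, and levels of different genes are not set against each other because probes differ in brightness. Array medians were 7.05 to 7.12. For Ezh2 itself the control mean was 11.87 ± 0.05 and the mutant mean 11.78 ± 0.02 (log2, SD, n = 4 each). The difference of −0.09 ± 0.05 (SE) did not pass (adjusted p 0.652 by limma). All mutants lay below all controls, which held for 3.6% of all genes. Which exons its probes cover was not analysed here. Lung epithelium was present in all lungs by its markers, with mean log2 levels over 16 markers of 9.99 to 10.17 in controls and 9.97 to 10.03 in mutants. Low Xist values in control 1, control 2 and mutant 3 (6.37 to 6.74, against 12.62 to 13.00 in the others) set these embryos apart, Xist being the RNA that coats the inactive X chromosome of females. Both low-Xist controls were the embryos of litter 1, so sex and litter cannot be told apart among controls.

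In mutant lungs Cdkn2a rose 1.40-fold, and it was the single member that passed the test. Its neighbour Cdkn2b and the INK4 gene Cdkn2c also lay higher in every mutant than in any control but did not pass, Cdkn2d, at 1.01-fold, did not separate the groups, and Cdkn1b and Cdkn1c, at 0.89-fold and 0.90-fold, lay on the other side of 0. Called means an adjusted p of at most 0.05 by limma with Benjamini-Hochberg adjustment over all 22180 genes, a rule by which 0.604% of all genes were higher in mutants and 0.248% lower. By this rule 1 of 6 members was called higher and 0 lower. At an unadjusted limma p under 0.05, 3 members were higher (Cdkn2a, Cdkn2b and Cdkn2c), against 5.61% of all genes, and 1 was lower (Cdkn1b), against 4.26%. In 3 of 6 members all mutants lay above all controls, which held for 4.48% of all genes, and in 1 member, Cdkn1c, all mutants lay below, which held for 3.6%. Members were chosen with earlier results of these data known, and these counts are not independent evidence.

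**Figure D1:**
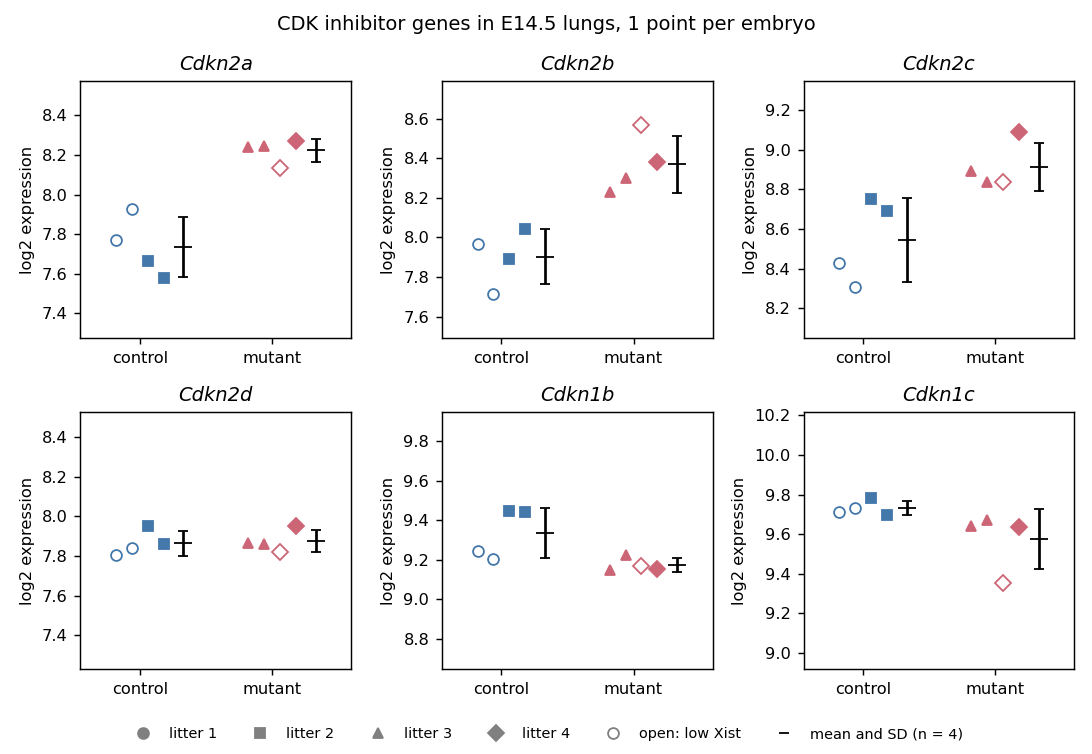
Log2 expression (vertical axes, each spanning 1.3 log2 units) of the 6 genes in control and mutant lungs, with 1 point per embryo, shape for litter, open symbols for low Xist, and bars for mean and SD (n = 4). The mutants lie above all controls for Cdkn2a, Cdkn2b and Cdkn2c, overlap them for Cdkn2d and Cdkn1b, and lie below them for Cdkn1c, where mutant 3 stands at 9.35.

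Cdkn2a, the gene of p16Ink4a and p19Arf, had log2 values of 7.77, 7.93, 7.66 and 7.58 in controls 1 to 4 and of 8.24, 8.24, 8.14 and 8.27 in mutants 1 to 4. The groups did not overlap, and the lowest mutant lay 0.21 above the highest control. The mutants were also closer together than the controls, with SDs of 0.06 and 0.15 (n = 4 each). The log2 change was 0.49 ± 0.08 (SE), with a 95% interval of 0.31 to 0.67 and it passed (limma, adjusted p 0.0164). Of all genes, 119 had a larger increase. The direction held under all 27 alternative settings of the fit and the call in 19 of them, with adjusted p of 0.00465 to 0.0953 by limma. The call ended when littermates were averaged (adjusted p 0.0953, limma), when control 3, control 4 or mutant 4 was left out (0.0508, 0.0673 and 0.0718), and when litter 2, 3 or 4 was left out (0.0675, 0.0625 and 0.0743). It also ended when every probe set was tested (0.0671). The 2 control litters differed, at litter means of 7.85 and 7.62, while the 2 mutant litters had means of 8.24 and 8.20. Among the 5 high-Xist embryos the change was 0.63, and between mutant 3 and the 2 low-Xist controls it was 0.29.

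Cdkn2b, whose product p15Ink4b inhibits the same kinases and is known as a target of TGF-beta signalling, had log2 values of 7.97, 7.71, 7.89 and 8.04 in controls 1 to 4 and 8.23, 8.30, 8.57 and 8.38 in mutants 1 to 4. Mutant 3 was the highest, and the lowest mutant lay 0.19 above the highest control. The log2 change was 0.47 ± 0.10 (SE), or 1.38-fold, with a 95% interval of 0.25 to 0.68 on the log2 scale, and it did not pass (limma, adjusted p 0.0549). It passed in 5 of 27 alternatives, with adjusted p from 0.0228 to 0.204 by limma over all of them. The change was 0.34 among high-Xist embryos and 0.73 between mutant 3 and the 2 low-Xist controls, which is the reverse of the order seen for Cdkn2a. Whether the change of either gene depends on sex was not tested with 1 low-Xist mutant.

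Cdkn2c, the gene of p18Ink4c, an inhibitor expressed in many dividing tissues, had log2 values of 8.43, 8.31, 8.75 and 8.69 in controls 1 to 4 and 8.89, 8.84, 8.84 and 9.09 in mutants 1 to 4. The control litters stood apart at 8.37 and 8.72, a gap of 0.36 that is nearly as wide as the difference between the genotypes. The gap between the highest control and the lowest mutant was 0.09. Mutants exceeded controls by 0.37 ± 0.11 (SE) on the log2 scale, which did not pass (limma, adjusted p 0.212). It was 0.19 without litter 1 and 0.55 without litter 2, and only the latter passed (adjusted p 0.0376, limma).

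Cdkn2d, the gene of p19Ink4d, which is a different protein from p19Arf, had log2 values of 7.80, 7.84, 7.95 and 7.86 in controls 1 to 4 and 7.87, 7.86, 7.82 and 7.95 in mutants 1 to 4. The groups spanned the same range. The log2 change was 0.01 ± 0.06 (SE), and its 95% interval of −0.12 to 0.15 lay below the whole interval of Cdkn2a and of Cdkn2b. Its adjusted p was 0.976 by limma, and its sign turned in 6 of 27 alternatives, among them centring the arrays on their medians.

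**Figure D2:**
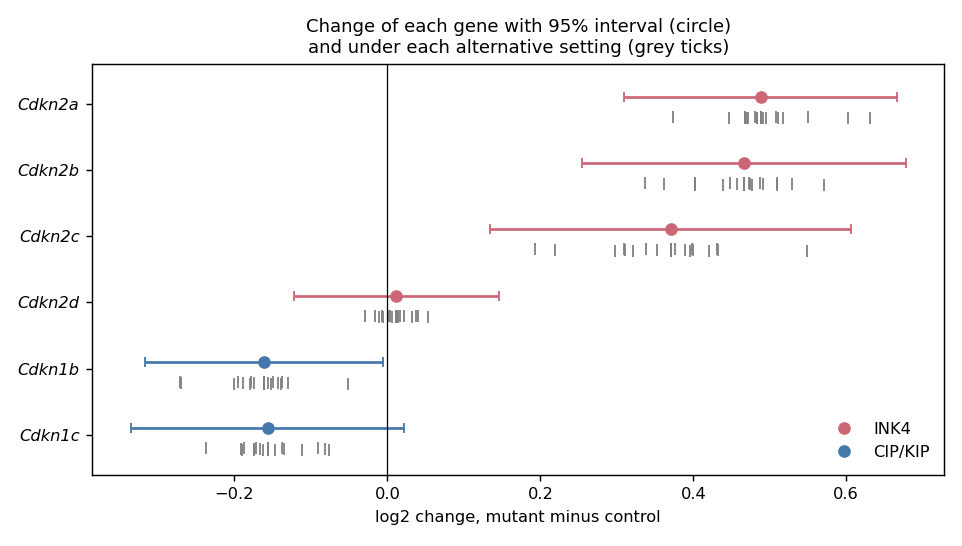
Log2 change, mutant minus control, of each gene (horizontal axis), with circles for the fitted value, bars for its 95% interval, and grey ticks for the value under each alternative setting. Intervals of Cdkn2a, Cdkn2b and Cdkn2c lie above 0, and that of Cdkn2d spans 0. Those of Cdkn1b and Cdkn1c reach from −0.32 and −0.34 to −0.01 and 0.02. All intervals share a single litter correlation, and those of Cdkn2c and Cdkn1b may be too narrow (control litters 0.36 and 0.22 apart).

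Among the CIP/KIP genes, Cdkn1b encodes p27, an inhibitor whose amount is largely set by protein turnover. Its log2 values were 9.24, 9.21, 9.45 and 9.44 in controls 1 to 4 and 9.15, 9.22, 9.17 and 9.15 in mutants 1 to 4. The control litters had means of 9.22 and 9.44, and the mutant litters, at 9.19 and 9.16, lay close to the first of them. Of the mutants, 3 mutants lay below the lowest control, and the difference of −0.16 ± 0.07 (SE, log2) did not pass (limma, adjusted p 0.493). It was −0.05 without litter 2 and −0.27 without litter 1, so its size turned on which control litter was used.

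Cdkn1c encodes p57, an imprinted inhibitor expressed from the maternal copy and needed for normal growth and differentiation of embryonic tissues. Its log2 values were 9.71, 9.73, 9.78 and 9.70 in controls 1 to 4 and 9.64, 9.67, 9.35 and 9.64 in mutants 1 to 4. The controls were tightly grouped, with an SD of 0.04 (n = 4), and mutant 3 alone widened the mutants to an SD of 0.15 (n = 4). The highest mutant lay only 0.03 below the lowest control. The difference of −0.16 ± 0.08 (SE, log2) did not pass (limma, adjusted p 0.585). Without mutant 3 it was −0.08. Mutant 3 was also the only low-Xist mutant. The change was −0.09 among high-Xist embryos and −0.37 between mutant 3 and the low-Xist controls. Whether it depends on sex was not tested.

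Mutant 3 was also lowest in the mean log2 level of 6 smooth muscle markers, at 10.30 against 10.56 to 10.75 in controls and up to 10.50 in mutants. It was highest in the mean of 6 airway cartilage markers, at 7.10 against 6.94 to 7.004 in controls and down to 6.92 in mutants. The same held for 5 neuroendocrine markers, at 7.12 against 6.89 to 6.95 in controls and down to 6.95 in mutants. For 8 endothelial markers it was highest by little, at 10.614 against 10.46 to 10.605 in controls and down to 10.56 in mutants. Some markers moved against these means. Col2a1 was lower in all mutants, at 8.42 to 8.48 against 8.56 to 8.91 in controls, and mutant 3 was the highest mutant. Emcn was 11.42 in mutant 3, the lowest of all embryos, against 11.52 to 11.73 in controls. The dimmest cartilage and neuroendocrine markers, Matn1 at 5.84 and Chgb at 5.36, lay below the array medians. None of the 6 smooth muscle markers had a positive log2 change, and Cnn1, the gene of calponin, fell by 0.46 on the log2 scale (limma, adjusted p 0.0366) while the other 5 did not pass. The Cnn1 call was lost in 12 of 27 alternatives, among them averaged littermates, the replicate block, and leaving out control 1, control 2, mutant 1, mutant 3, mutant 4, litter 1 or litter 4. No smooth muscle marker was near the bottom of the scale, the dimmest being Des at 9.46. In whole lung, fewer cells of a type and less RNA per cell cannot be told apart, and the part of these cell types in the value of Cdkn1c was not tested. Among epithelial markers Foxa1, which encodes a forkhead factor, fell by 0.56 on the log2 scale (limma, adjusted p 0.00107), and among mesothelial markers Upk1b rose by 0.46 (0.0102). The Upk1b call was lost in 6 of 27 alternatives, which were averaged littermates, the high-Xist embryos alone, and leaving out control 4, mutant 4, litter 2 or litter 4. These 3 were the called genes among 74 markers tested in 11 lists. In the epithelial list 12 of 16 markers had a negative change, with a median of −0.07, against 10452 of 22180 genes with a negative change. An unadjusted limma p under 0.05 was found for 8 of 16, against 9.87% of all genes. Besides Foxa1, the markers Epcam (−0.26), Shh (−0.28), Esrp1 (−0.24), Grhl2 (−0.18) and Foxa2 (−0.20) had all mutants below all controls but did not pass, and Krt19 had a log2 change of 0.50 with overlap of the groups. The part of the epithelial share in the values of the 6 members was not tested.

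By two-sided exact permutation over the 8 embryos, with littermates taken as independent, the unadjusted p was 0.0286 for each of Cdkn2a, Cdkn2b, Cdkn2c and Cdkn1c, the smallest that 4 against 4 can give. The exact permutation p was 0.0571 for Cdkn1b and 0.686 for Cdkn2d.

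The families were set beside each other as the deviation of each embryo from the control mean. Over the 4 INK4 genes this deviation averaged 0.30, 0.30, 0.33 and 0.41 in mutants 1 to 4 and ranged from −0.06 to 0.05 in controls. Over the 2 CIP/KIP genes it averaged −0.14, −0.09, −0.27 and −0.14 in mutants 1 to 4 and ranged from −0.06 to 0.08 in controls. Every mutant therefore lay above every control on the INK4 mean and below every control on the CIP/KIP mean. The INK4 mean minus the CIP/KIP mean was 0.43, 0.39, 0.60 and 0.55 in mutants 1 to 4, against −0.03 to 0.03 in controls, and the groups differed by 0.49. The controls were nearly constant on this difference, with an SD of 0.03 (n = 4), and the control litter that was higher in the INK4 mean was also higher in the CIP/KIP mean. Single genes varied more among controls and partly offset each other in the mean. In controls 3 and 4 Cdkn2a deviated by −0.07 and −0.16, and Cdkn2c by 0.21 and 0.15. No p is given for these family means, since their members were chosen with results known.

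**Figure D3:**
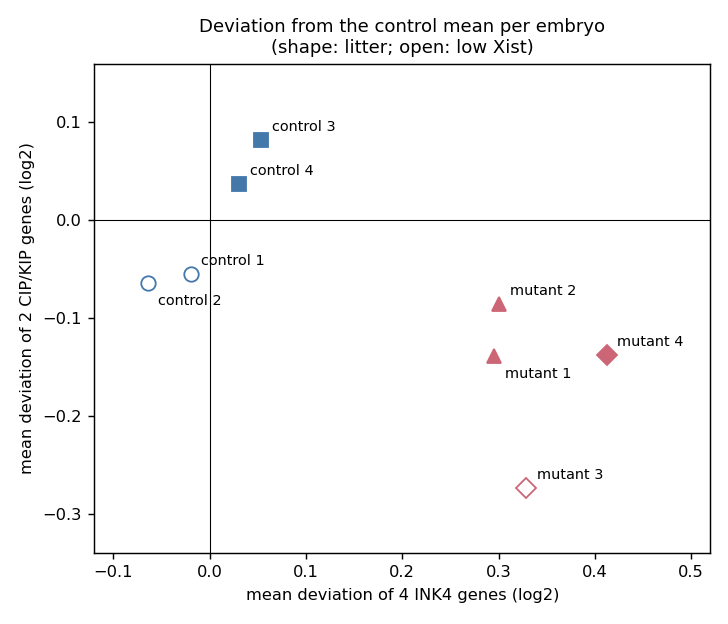
Mean deviation from the control mean over the 4 INK4 genes (horizontal axis) and the 2 CIP/KIP genes (vertical axis), both in log2 units, with 1 point per embryo, shape for litter and open symbols for low Xist. The 4 mutants lie at 0.30 to 0.41 on the horizontal axis and at −0.27 to −0.09 on the vertical axis, apart from the controls around 0.

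By gene, the INK4 change minus the Cdkn1b change was 0.65 for Cdkn2a, 0.63 for Cdkn2b and 0.53 for Cdkn2c on the log2 scale, and 0.17 for Cdkn2d. Against Cdkn1c the same differences were 0.64, 0.62, 0.53 and 0.17. Among controls the SD of such a difference between 2 genes ranged from 0.04 (Cdkn2d minus Cdkn1c) to 0.27 (Cdkn2a minus Cdkn1b). These 8 differences between genes are descriptions and were not tested. The median log2 change was 0.42 over the INK4 genes and −0.16 over the CIP/KIP genes, against 0.01 over all genes tested.

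The Cdkn2a and Cdkn2b pair could be set against the genes around it. In RefSeq gene order, Mtap, a gene of the methionine salvage pathway, lies next to Cdkn2a, and the nearest tested gene beyond Cdkn2b is Dmrta1, a transcription factor gene. Mtap had a log2 change of 0.05 ± 0.06 (SE) and Dmrta1 of 0.13 ± 0.07 (SE), and neither passed. Mir31 and Wincr1 beyond Mtap had −0.03 and −0.02, while Zfp352 and Gm12633 beyond Dmrta1 had 0.18 and −0.19, and none of these passed. Among these flanking genes the groups overlapped in each. Their levels differed, with control means of 10.88 for Mtap and of 4.57 to 6.51 for Dmrta1, Wincr1, Gm12633, Mir31 and Zfp352. Genes in that lower range lay below the array medians, and RMA draws changes of dim genes towards 0. The changes of these dim genes therefore say little about the region. Of 7 listed neighbours of the pair within the wider region, 0 were called and 0 had an unadjusted limma p under 0.05. That list did not hold Gm12633, Zfp352, Mir31 or Wincr1. Dmrta1, Ifne and Ifnb1 among them were also dim, with control means of 4.57, 5.99 and 5.11. The brighter Mtap, Klhl9, Focad and Elavl2, with control means of 7.47 to 10.88, had log2 changes of −0.004 to 0.05. Whether the change was confined to the pair was not tested.

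Around Cdkn1c, 16 genes of its imprinted domain were tested and 0 were called, with 0 at an unadjusted limma p under 0.05 and a median log2 change of 0.01. Kcnq1ot1, the long noncoding RNA that silences the domain on the paternal copy, had a log2 change of 0.02 ± 0.11 (SE). Slc22a18, the next tested gene, had −0.02 and Phlda2, an imprinted growth regulator, had 0.25 ± 0.12 (SE, adjusted p 0.512 by limma), the largest of the list. In control 3 Phlda2 was as high as in mutants, so its groups overlapped. Nap1l4 had −0.07. Cars had −0.13, the largest negative value in the domain.

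Among the kinases and cyclins on which the inhibitors act, none passed. Of 5 genes of D cyclins and their kinases 0 were called, and Ccnd2, the gene of cyclin D2, had the largest value, a log2 change of 0.16 ± 0.06 (SE, adjusted p 0.437 by limma), with all mutants above all controls. Ccnd1 had −0.11, Cdk4 −0.05 and Cdk6 0.05. Of 6 genes tested among CDK1, CDK2 and their cyclins 0 were called, the largest values being −0.13 for Cdk2 and −0.12 for Ccna2, the gene of cyclin A2. In the retinoblastoma and E2F family 0 of 13 were called. There 11 of 13 genes had a negative change, with a median of −0.07, against 10452 of 22180 genes with a negative change. E2f5 and E2f4 had −0.13 and −0.11, with all mutants below all controls. Rbl2, the gene of the pocket protein p130 of resting cells, had 0.21 ± 0.08 (SE, adjusted p 0.429 by limma), with overlap of the groups. Tfdp1, a partner of the E2F factors, had −0.13.

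In the list of the ARF and p53 axis, 4 genes were tested and 0 called. Mdm2, the ubiquitin ligase that p19Arf restrains, had a log2 change of 0.12 and Npm1, a nucleolar partner of p19Arf, had −0.11. In the list of p27 turnover and transcription 0 of 9 were called. Foxo3, a transcription factor that can activate Cdkn1b, had 0.15 and Skp2, which marks p27 for destruction, had −0.11, both without overlap of the groups. Cul1, the scaffold of the ligase of Skp2, had −0.12.

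Of 26 known regulators of the Ink4-Arf locus 0 were called, although 7 had an unadjusted limma p under 0.05, against 9.87% of all genes. All mutants lay above all controls for Ets2 (log2 change 0.18), Tbx3 (0.16), Rnf2 (0.12), Tbx2 (0.12), Phc2 (0.11) and Cbx2 (0.07). They lay below all controls for Cdc6 (−0.25), Dmtf1 (−0.12) and Ezh2 (−0.09). None of these genes passed. In this list 1 gene was called higher without control 3 and also without litter 2. The largest change was that of Id1, an inhibitor of helix-loop-helix factors that is known to restrain Cdkn2a, with a log2 value of 8.54, 8.55, 9.26 and 8.78 in controls 1 to 4 and 9.06 to 9.13 in mutants. Control 3 lay above every mutant, and the log2 change of 0.33 ± 0.14 (SE) had an adjusted p of 0.484 by limma. Bmi1, a PRC1 subunit and the best-known repressor of the locus, had a log2 change of 0.28 ± 0.09 (SE, adjusted p 0.315 by limma), with control 3, at 7.47, above mutant 3, at 7.43. Over all 8 pathway lists 86 genes were tested, 0 were called, 10 had an unadjusted limma p under 0.05 and the median log2 change was 0.00. For comparison, 2189 of 22180 genes had an unadjusted limma p under 0.05. All mutants lay above all controls in 8 pathway genes and below in 7, against 4.48% and 3.6% of all genes.

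**Figure D4:**
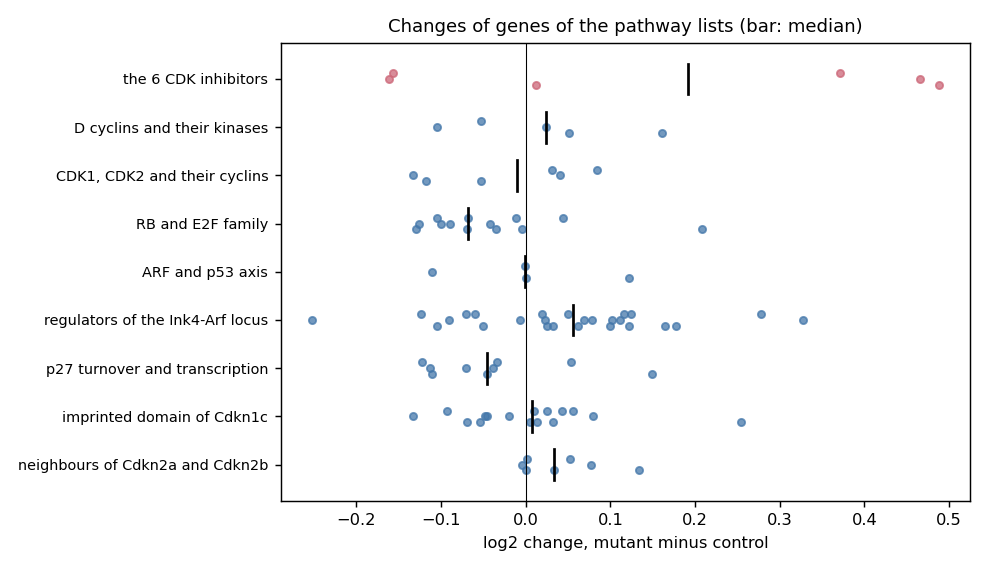
Log2 change, mutant minus control (horizontal axis), of each gene in the 8 pathway lists (blue) and of the 6 inhibitors (red), with a bar at each median. The medians of the pathway lists lie between −0.07 and 0.06, and Cdkn2a, Cdkn2b and Cdkn2c lie at 0.37 to 0.49, above the highest pathway gene at 0.33.

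The genes most like each member were sought over the 8 embryos after each group mean was removed, among 17272 genes, as a description. For Cdkn2a they were Zfp980, Zc2hc1a and Krt31 (Pearson r of 0.96, 0.95 and 0.95), for Cdkn2b Slc25a37, Fads6 and Sirpb1c (0.98, 0.98 and 0.97), and for Cdkn2c Ctsl, Tpgs1 and Maged2 (each 0.99). Cdkn2d was most like Gde1, Lnx2 and Fbxo27 (0.99, 0.98 and 0.97), Cdkn1b most like Slc38a10, Zfp472 and Lrrn1 (each 0.98), and Cdkn1c most like Ptcd2, Tsen15 and Fastkd1 (each 0.99). Of these 18 genes Lrrn1 alone was called, with a log2 change of 0.97. No member was among the 3 genes named for another. The number of genes with r above 0.9 differed, from 16 for Cdkn2a to 185 for Cdkn1c. Littermates are not independent, and the highest r among so many genes is large by selection.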

How the data were processed

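Expression was measured with 1 array per embryo. Per the labels' protocols RNA was amplified from a poly(T) primer and labelled with biotin. The values deposited by the authors are log2 expression per probe set, made with RMA in oligo per the submitters' processing notes, which also name limma. The sources used here give no versions, options or detection calls. RMA makes array distributions alike and draws changes of dim genes towards 0. The number of arrays limits the precision.

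Of 41345 probe sets, 23521 had a single gene symbol, 1814 several, and 16010 were not listed in the annotation. Each gene kept its probe set with the highest mean, which gave 22180 genes. All 6 members matched RefSeq by gene number. Genotype was fitted with limma 3.58.1 in R 4.3.3, litter entering as a random effect (correlation 0.153). The fit was moderated by empirical Bayes and adjusted by Benjamini-Hochberg, with two-sided tests. All genes shared this single correlation. For Cdkn2c and Cdkn1b the control litters stood 0.36 and 0.22 apart, more than the littermates within them. Their intervals and p may therefore be too narrow and too small. The fit was tested on data with known answers. Figures used Python 3.11.15 and matplotlib 3.10.9. Embryos were separate animals. Named genes were the members, Ezh2, called list genes or otherwise the 2 largest changes of a list, and the 3 genes most like each member. Flanking genes, and others named for their role or for groups without overlap, were added after values were seen. Of the marker lists without a call, cartilage, neuroendocrine cells and endothelium are named, for mutant 3, with some markers that were dim or went the other way. Members and lists were chosen with earlier results of these data known.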

Additional observations from a re-analysis of the deposited data

Results flagged for a closer look

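Cdkn1c in mutant 3 had a log2 value of 9.35, while the other 3 mutants lay between 9.64 and 9.67, so that its gap to the nearest of them took up 0.895 of the range of the group, above Dixon's 95% critical ratio for 4 values. It was the only such value in 26 groups of 4 values tested, and chance gives about 1 in 20. Mutant 3 was also the only low-Xist mutant, and the part of sex in this value was not tested.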

How the results depend on the processing

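Leaving out single embryos gave log2 changes of 0.45 to 0.55 for Cdkn2a and −0.016 to 0.040 for Cdkn2d, and 0 to 1 members called higher. Without the litter block, without the dimmer genes below the median level, with a variance trend or with Xist as a covariate, 2 members were called higher, Cdkn2b (log2 change 0.47, 0.47, 0.47 and 0.47) being the addition. At an adjusted p of 0.01 none of the 6 members was called (0) and at 0.1 there were 2. With litter means (log2 change 0.49) and with every probe set tested (0.49) the count was 0, and without litter 4 (0.51) it was also 0. Without litter 2 Cdkn2a (0.37) lost its call and Cdkn2c (0.55) gained it. Without litter 3 Cdkn2a (0.47) lost it and Cdkn2b (0.57) gained it. Cdkn2d turned to −0.030 without litter 1, −0.0062 with arrays centred on medians, −0.0072 with the Xist covariate and −0.010 among high-Xist embryos, an alternative chosen after seeing the data and fitted without a litter block. INK4 minus CIP/KIP moved to 0.58 without litter 3 and 0.41 without litter 4. Under exact permutation the unadjusted p of Cdkn2b (0.47), Cdkn2c (0.37) and Cdkn1c (−0.16) was 0.0286. The causes were not tested. Cdkn1b and Cdkn1c kept their sign in all 27 alternatives and were called in none.

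Embryo numbers 1 to 4 did not pair the samples. After each group mean was removed, same-numbered controls and mutants correlated at −0.27 to 0.03. With the replicate block Cdkn2a kept its change of 0.49 (adjusted p 0.0319 by limma) and no call of a member changed, while the call of Cnn1 was lost. Over all genes, 134 were higher and 55 lower. These counts were 65 and 33 with litter means, 77 and 26 with every probe set tested, 89 and 32 without control 4, 73 and 28 without mutant 4, 84 and 30 without litter 4, and 361 and 313 with the Xist covariate. The lower count was 95 without the litter block, 121 without litter 1 and 103 without litter 3, and the higher count 79 among high-Xist embryos. The litter correlation fell below 0 without litter 1, 3 or 4 and with the Xist covariate (−0.07, −0.10, −0.05 and −0.08).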
